A study of Mus musculus with 12 samples.

Results

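The 9 genes described here, Sgsh, Naglu, Hgsnat, Idua, Gusb, Arsg, Glb1, Hpse and Sumf1, encode the enzymes that take heparan sulfate apart and a protein that several of them need. Every ATAC-seq peak whose nearest start site, in the deposited annotation, belonged to one of them was taken. This gave 108 of the 281974 peaks of the study. Microglia held 46 of their 91770, NeuN+ nuclei 38 of 107627 and Olig2+ nuclei 24 of 82577. No peak was filtered out. A peak with its centre within 1000 bp of that start site was counted as a start-site peak, and any other as distal. Microglia, NeuN+ and Olig2+ nuclei had 14, 7 and 11 start-site and 32, 31 and 13 distal peaks.

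Heparan sulfate is a sulfated sugar chain carried by proteoglycans of the cell surface and matrix. After uptake it is cut into pieces by heparanase (Hpse) and then degraded in the lysosome from one end, each enzyme removing a single group and exposing the substrate of the next. Iduronidase (Idua) and beta-glucuronidase (Gusb) remove uronic acids, sulfamidase (Sgsh) removes the sulfate from N-sulfoglucosamine, Hgsnat acetylates the freed amine, Naglu removes the acetylated sugar, and Arsg is a sulfatase for 3-O-sulfated glucosamine. Sumf1 makes the catalytic residue of all sulfatases, Sgsh and Arsg included, and Glb1 is the lysosomal beta-galactosidase. Loss of Sgsh causes the childhood brain disease Sanfilippo syndrome type A, in which heparan sulfate builds up in lysosomes, and loss of Naglu or Hgsnat causes its types B and C.

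Chromatin accessibility was measured in forebrain of C57BL/6 mice aged 4 months, either wild type (WT) or SgshKO. The labels do not state how the Sgsh allele was changed. Microglia were sorted as live cells with CD11b and CX3CR1 at the surface and low CD45. Neuronal nuclei (NeuN+, negative for PU.1 and OLIG2) and oligodendrocyte-lineage nuclei (OLIG2+, here Olig2+, negative for PU.1 and NeuN) were sorted after a light formaldehyde fixation, so a difference between microglia and the other sorts cannot be told apart from a difference between live cells and fixed nuclei. Each of the 6 groups had 2 libraries. The labels do not say whether these came from separate animals, so the p-values measure the spread between these libraries, which may be technical. In such bulk samples, fewer cells with an open site and less opening per cell cannot be told apart.

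Library totals ran from 10771659 to 11804222 tags for microglia, 14326703 to 17706971 for NeuN+ and 15044194 to 19555924 for Olig2+ nuclei. Values below are tags per peak after each library was scaled to a total of 10000000 tags, so that 1 read is worth between 0.511 and 0.928 tags. Of 8 microglia marker genes, 7 had a start-site peak in microglia (all but Aif1), 0 in NeuN+ nuclei and 1 in Olig2+ nuclei. All 8 neuronal markers had one in NeuN+ nuclei, against 1 in microglia and 4 in Olig2+ nuclei, and all 8 oligodendrocyte-lineage markers had one in Olig2+ nuclei, against 5 in microglia and 4 in NeuN+ nuclei. In NeuN+ nuclei the summed neuronal markers were 890 and 839 tags in WT and 466 and 476 in SgshKO, and the share of tags in peaks was 26.7% and 25.9% in the WT libraries against 21.5% and 21.2% in those of SgshKO. The sums of other lineages differed too. In NeuN+ nuclei those of the oligodendrocyte lineage were 140 and 120 tags in WT against 67.0 and 71.7 in SgshKO, and those of astrocytes (1 of 6 markers with a peak) 137 and 127 against 86.6 and 97.8. In Olig2+ nuclei neuronal markers summed to 255 and 287 tags in WT against 335 and 323 in SgshKO, and lineage markers to 1950 and 1930 against 1740 and 1700. The microglia marker sum was 2130 and 1850 in WT microglia and 2180 and 1640 in SgshKO, with 55.8% and 48.7% of tags in peaks in WT and 67.4% and 53.7% in SgshKO. The part of these values in the results below was not tested.

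The start-site sequences are shown because the peaks that the results turn on lie over them. They are RefSeq sequences of assembly GRCm38.p6, from 150 bases before to 10 bases from the annotated start, 5′ to 3′ on the gene's strand. Of the 9 genes, 8 matched an entry. Hgsnat had none, so it was not searched. The entries of Arsg were searched, but they did not include its most upstream start. The sequences of Arsg and Idua are not printed. Capitals mark the E-box letters CACGTG, which are read by MITF, TFEB and TFE3, the factors named in the series design, and the cyclic AMP response element letters TGACGTCA. Both sets of letters read the same on either strand, and no match overlapped another.
Sgsh (chr11:119355501-119355660, - strand): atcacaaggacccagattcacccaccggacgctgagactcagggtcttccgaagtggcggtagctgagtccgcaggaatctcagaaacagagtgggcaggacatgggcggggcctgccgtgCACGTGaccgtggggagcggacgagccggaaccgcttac
Naglu (chr11:101069944-101070103, + strand): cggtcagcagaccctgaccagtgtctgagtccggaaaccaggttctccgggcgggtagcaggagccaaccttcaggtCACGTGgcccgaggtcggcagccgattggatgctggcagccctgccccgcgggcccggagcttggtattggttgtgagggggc
Glb1 (chr9:114400928-114401087, + strand): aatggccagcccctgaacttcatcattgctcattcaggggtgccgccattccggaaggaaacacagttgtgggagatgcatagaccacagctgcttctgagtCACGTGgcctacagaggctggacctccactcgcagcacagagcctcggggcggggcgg
Sumf1 (chr6:108185574-108185733, - strand): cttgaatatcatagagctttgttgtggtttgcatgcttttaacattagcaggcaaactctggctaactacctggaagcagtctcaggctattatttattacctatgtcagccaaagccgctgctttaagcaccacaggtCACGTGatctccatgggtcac
Gusb (chr5:130003040-130003199, - strand): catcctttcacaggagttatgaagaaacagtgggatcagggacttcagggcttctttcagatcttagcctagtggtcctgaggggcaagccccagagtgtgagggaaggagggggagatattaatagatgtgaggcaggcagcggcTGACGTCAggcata
Hpse (chr5:100719707-100719866, - strand): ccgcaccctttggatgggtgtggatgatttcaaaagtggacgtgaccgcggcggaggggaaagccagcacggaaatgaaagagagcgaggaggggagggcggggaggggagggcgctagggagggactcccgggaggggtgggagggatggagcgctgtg

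An E-box was found in 4 of the 8 genes with an entry. It began 29 bases before the start of Sgsh, 73 before that of Naglu, 48 before that of Glb1 and 11 before that of Sumf1. In all 4 it lay inside the start-site peak of each of the 3 sorts. The search covered the whole RefSeq entry, 250 bases before to 50 from the start, and each match fell in the shorter stretch printed. Of the 32851 entries of that full length, 7.15% hold the E-box letters and 1.79% the TGACGTCA letters. Gusb held TGACGTCA across its start site, inside the microglia peak and outside the peaks of the other sorts, which lay further into the gene. A match describes the letters only, not a site in use. Hpse, whose start-site peak was found in microglia alone, held neither set. Neither set was found in the entry of Idua or in those of Arsg.

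Sgsh is the gene that the study removed. Its start-site peak (chr11:119355381-119355624 in microglia, mm10, per the submitters' processing notes) was open in every library of both genotypes. It covers the start of Slc26a11 as well, which runs the other way from 119355509 while Sgsh begins at 119355510, so the signal cannot be assigned to one of the genes. This peak is no check of the genotype, since the labels do not place the change in the allele. In microglia it held 184 and 162 tags in the WT libraries against 257 and 260 in SgshKO (log2 change 0.58, SE 0.27, adjusted p = 0.196). The SgshKO libraries were both above the WT libraries, and the change was not called at an adjusted p under 0.05 (0.0478 with the median of ratios and 0.037 with edgeR). In NeuN+ nuclei the same region held 34.5 and 22.6 tags in WT and 9.07 and 13.3 in SgshKO. It fell by 1.27 ± 0.28 on the log2 scale (adjusted p = 0.00256), with no overlap between the groups. It was called with the in-peak sum, the median of ratios and quantile scaling (changes of -0.99, -1.06 and -1.15, adjusted p = 0.00879, 0.0073 and 0.0312), and not without WT replicate 1 (0.0916) or with DESeq2 (0.166). In Olig2+ nuclei it held 65.9 and 74.2 tags in WT and 60.9 and 69.1 in SgshKO (log2 change -0.11 ± 0.15, adjusted p = 0.653), and the groups overlapped.

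A second Sgsh peak, labelled as promoter of Slc26a11, lay 504 bp into the gene in microglia, with 229 and 192 tags in WT and 364 and 253 in SgshKO (log2 change 0.53 ± 0.27, adjusted p = 0.244). It was the higher of the pair in microglia. In Olig2+ nuclei the matching peak held 5.19 and 7.67 tags in WT and 2.46 and 3.99 in SgshKO (adjusted p = 0.146), near the limit of 3 reads per library, and NeuN+ nuclei had none. The microglia peaks at 3199 and 8154 bp, in introns of Sgsh, were at or under 28.6 tags in every library and were not called.

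**Figure D1:**
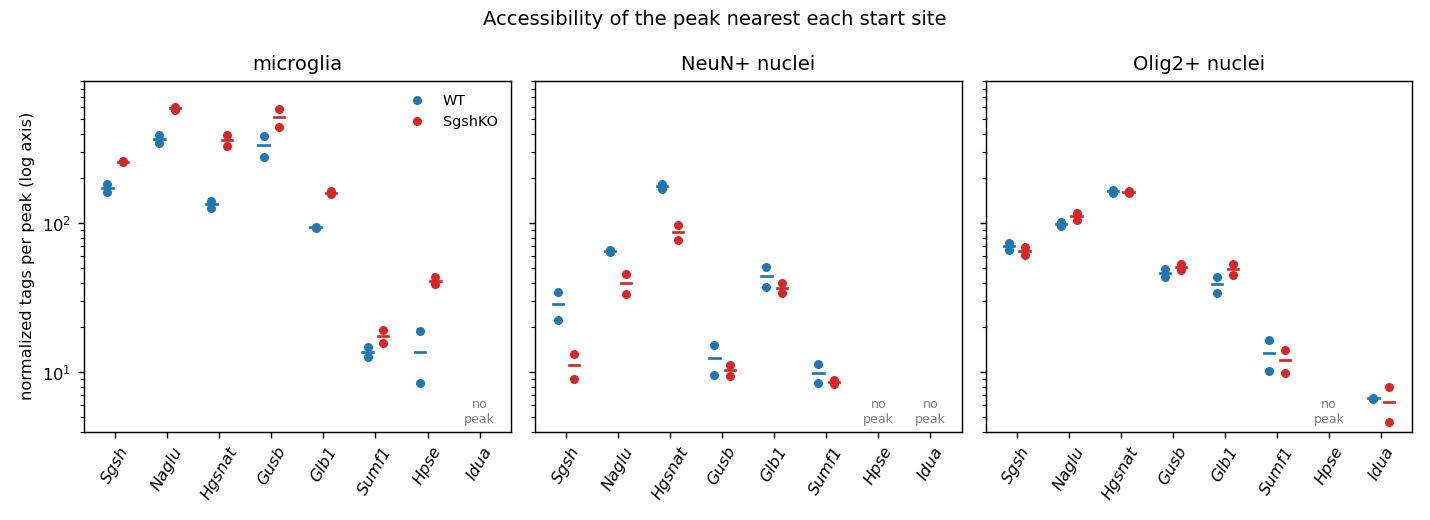
Normalized tags (log axis) of the peak nearest the start of each gene in microglia, NeuN+ and Olig2+ nuclei; points are libraries, bars are means of the 2 libraries of a group. In NeuN+ nuclei the SgshKO points of Sgsh, Naglu and Hgsnat sit below WT. In microglia the SgshKO points sit above WT for all 7 genes drawn. Over all start-site peaks, both SgshKO libraries lay below both WT libraries at 70.9% in NeuN+ nuclei and above at 32.7% in microglia. Arsg has several start sites, whose microglia peaks went both ways, and is plotted separately.

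Over all peaks of the 9 genes, 8 of 46 were called in microglia (17.4%, against 7.37% of all peaks), 5 higher and 3 lower in SgshKO (5.05% and 2.33% of all peaks). In NeuN+ nuclei 11 of 38 were called (28.9%, against 29.8% of all peaks), 1 higher and 10 lower (10.2% and 19.6%). In Olig2+ nuclei 1 of 24 was called (4.17%, against 19.8%), and it was higher (8.17%). Leaving out WT replicate 2 left 0 calls in microglia and 557 in the whole table, and leaving out WT replicate 1 left 3. In NeuN+ nuclei 0 peaks of the whole table were called without either of the SgshKO libraries, and 3 of the 38 without either of the WT libraries. Olig2+ nuclei had 0 calls without WT replicate 2.

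Start-site peaks gave 2 calls of 14 in microglia, both higher (9.8% of all start-site peaks were called, 8.59% higher). Their median log2 change was 0.56, against 0.03 over all start-site peaks. In 9 of the 14 both SgshKO libraries lay above both WT libraries, against 32.7% of all start-site peaks, and in 2 they lay below, against 25.1%. In NeuN+ nuclei 4 of 7 were called, all lower (46.6% of all start-site peaks were called, 44.9% lower), and all 7 changes were below 0, although those of Glb1, Gusb and Sumf1 were above 0 (0.06, 0.06 and 0.10) when scaled to the in-peak sum. In 4 of the 7 both SgshKO libraries lay below both WT libraries, against 70.9% of all start-site peaks. Their median was -0.72, against -0.53 over all start-site peaks. In Olig2+ nuclei 1 of 11 was called, higher (20.3% of all were called, 12.7% higher), with a median of -0.01 against 0.05.

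**Figure D2:**
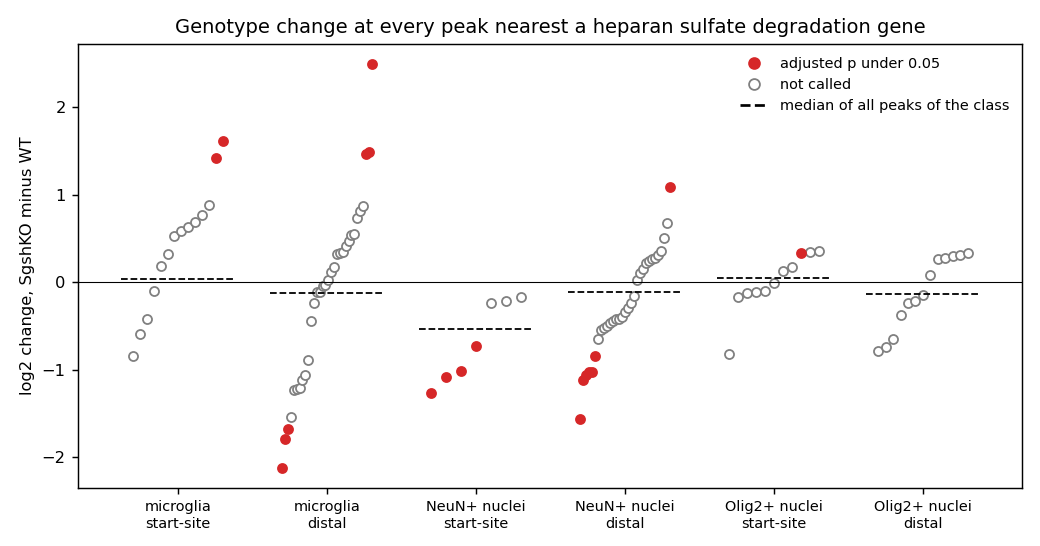
Log2 change, SgshKO minus WT, of all 108 peaks nearest the 9 genes, by sort and by start-site or distal class; filled points passed an adjusted p under 0.05, and dashed lines are medians over all peaks of the class. In microglia the start-site points lie mostly above the dashed line at 0.03, and in NeuN+ nuclei all 7 lie below 0 around a dashed line at -0.53, although Glb1, Gusb and Sumf1 there are above 0 when scaled to the in-peak sum.

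The direction of calls depended on the scaling. When each library was scaled by its in-peak sum instead, the share of called peaks that were higher in the whole table went from 68.5% to 35.1% in microglia and from 34.3% to 66.5% in NeuN+ nuclei, and the calls among these genes became 4 higher and 10 lower in microglia and 3 higher and 5 lower in NeuN+ nuclei. With the median of ratios they were 12 higher and 3 lower, and 2 higher and 7 lower. In Olig2+ nuclei the median of ratios moved that share of the whole table from 41.2% to 53.1%. The scalings shifted the median change of all peaks from -0.08 to between -0.28 and -0.03 in microglia and from -0.23 to between -0.08 and 0.05 in NeuN+ nuclei.

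Hgsnat, the acetyltransferase that acts right after Sgsh, had the start-site peak with the smallest adjusted p of the 9 in microglia and in NeuN+ nuclei. Its start-site peak (chr8:25976610-25976880 in microglia, promoter) held 142 and 126 tags in WT microglia and 329 and 393 in SgshKO, means of 134 ± 11.0 and 361 ± 45.1 (SD, n = 2). It rose by 1.42 ± 0.27 on the log2 scale (adjusted p = 0.000654). Under the scalings by in-peak sum, median of ratios and quantiles the change was 1.21, 1.48 and 1.05, with adjusted p of 0.00289, 0.000922 and 0.00311. Without WT replicate 2 the change was 1.34 and was no longer called (adjusted p = 0.176). The same region of NeuN+ nuclei held 184 and 171 tags in WT and 97.0 and 77.5 in SgshKO. It fell by 1.02 ± 0.12 (adjusted p = 1.4e-05), and by 0.72, 0.81 and 0.46 under the same scalings, all of them called. In Olig2+ nuclei it held 159 and 168 tags in WT against 164 and 160 in SgshKO (log2 change -0.01 ± 0.10, adjusted p = 0.939), and the groups overlapped. The SgshKO value thus lay above both WT values in microglia, below both in NeuN+ nuclei and among them in Olig2+ nuclei.

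Naglu, which acts after Hgsnat, had its highest level in microglia. The peak 149 bp upstream of its start (chr11:101069830-101070061) held 389 and 347 tags in WT and 604 and 579 in SgshKO (log2 change 0.69 ± 0.25, adjusted p = 0.0808). The groups did not overlap and the change was not called. It was called with the median of ratios (adjusted p = 0.0121), with edgeR (0.00863) and with DESeq2 (0.0268). The Naglu peak of NeuN+ nuclei, 41 bp upstream, held 64.0 and 66.6 tags in WT and 33.5 and 45.7 in SgshKO. It fell by 0.72 ± 0.18 (adjusted p = 0.00536), and this call was lost with the in-peak sum (-0.43, adjusted p = 0.0669) and quantile scaling (-0.36, adjusted p = 0.201). In Olig2+ nuclei the peak 74 bp upstream held 102 and 96.1 tags in WT and 106 and 117 in SgshKO (log2 change 0.17 ± 0.12, adjusted p = 0.342).

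Gusb showed the widest range of levels between sorts. Its microglia start-site peak (chr5:130002886-130003088, promoter) held 388 and 280 tags in WT and 588 and 444 in SgshKO (log2 change 0.63 ± 0.26, adjusted p = 0.133; 0.016 with the median of ratios and 0.0152 with edgeR). The peak of NeuN+ nuclei, annotated to the 5′ UTR, held 15.3 and 9.60 tags in WT and 11.2 and 9.52 in SgshKO (adjusted p = 0.611). That of Olig2+ nuclei held 49.3 and 43.5 in WT and 48.6 and 53.2 in SgshKO (adjusted p = 0.618). None of the Gusb start-site peaks was called, and the genotypes overlapped in both sorts of nuclei.

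Glb1 had a single peak in each sort, at its start. In microglia (chr9:114400936-114401141) it held 95.1 and 92.3 tags in WT and 164 and 156 in SgshKO (log2 change 0.77 ± 0.29, adjusted p = 0.103). Its SgshKO values lay clear of its WT values, and the change was not called in the table of microglia (0.0219 with the median of ratios and 0.0148 with edgeR). In NeuN+ nuclei Glb1 held 51.0 and 37.3 tags in WT and 39.8 and 34.3 in SgshKO (log2 change -0.23 ± 0.19, adjusted p = 0.365; 0.06 when scaled to the in-peak sum or by quantiles). In Olig2+ nuclei it held 43.6 and 34.3 in WT and 53.5 and 45.2 in SgshKO (0.34 ± 0.18, adjusted p = 0.193).

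Idua had a start-site peak of its own only in Olig2+ nuclei, with 6.74 and 6.65 tags in WT and 7.99 and 4.65 in SgshKO (adjusted p = 0.860), among the lowest values of the set. Its 1, 7 and 2 distal peaks of microglia, NeuN+ and Olig2+ nuclei all lay inside Dgkq or Tmem175 and not in Idua. The called one, in exon 22 of 23 of Dgkq in NeuN+ nuclei, held 9.06 and 14.7 tags in WT and 4.19 and 6.35 in SgshKO (fell by 1.02 ± 0.35, adjusted p = 0.0347).

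Arsg has several annotated start sites, and the peaks named to it lay at different ones in the 3 sorts. The site of transcript NM_028710 is the first, and those of NM_001361975 and NM_001361977 lie 12518 and 21965 bp downstream. In NeuN+ nuclei the only Arsg peak lay 61 bp upstream of the first start, with 69.1 and 54.8 tags in WT and 24.4 and 33.0 in SgshKO. It fell by 1.09 ± 0.19 (adjusted p = 0.000552), and was called with all 3 other scalings (adjusted p from 0.00235 to 0.0362) and not with DESeq2 (0.0704). In Olig2+ nuclei the first start held 26.4 and 31.7 tags in WT and 39.4 and 35.2 in SgshKO (adjusted p = 0.221). The strongest Arsg peak there lay 269 bp upstream of the NM_001361975 start, with 142 and 120 tags in WT and 164 and 166 in SgshKO. It rose by 0.34 ± 0.11 (adjusted p = 0.0278), the only call in Olig2+ nuclei, and was not called without WT replicate 2 (0.331) or SgshKO replicate 2 (0.0527).

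In microglia the NM_001361975 start held 44.9 and 46.6 tags in WT and 100 and 72.4 in SgshKO at 232 bp upstream (log2 change 0.88 ± 0.34, adjusted p = 0.102). Past the NM_001361977 start, at 820 bp, an intronic peak went the other way, with 89.9 and 82.2 tags in WT and 45.9 and 49.2 in SgshKO (log2 change -0.84 ± 0.33, adjusted p = 0.115). Neither was called, and in both the genotypes did not overlap. The 3 Arsg peaks furthest downstream in microglia, 15631 to 17440 bp past the start that lies 70337 bp from the first, were all lower in mean in SgshKO. All 3 lie in intron 9 of 10. The one at 17136 bp was called, with 24.2 and 20.3 tags in WT and 5.19 and 7.43 in SgshKO (fell by 1.68 ± 0.48, adjusted p = 0.0245; 0.547 and 0.543 without WT replicate 1 or 2), and the other two were not (0.144 and 0.163). At the first start the microglia peaks carry the name of the neighbouring gene Slc16a6 and so are not among the Arsg peaks.

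**Figure D3:**
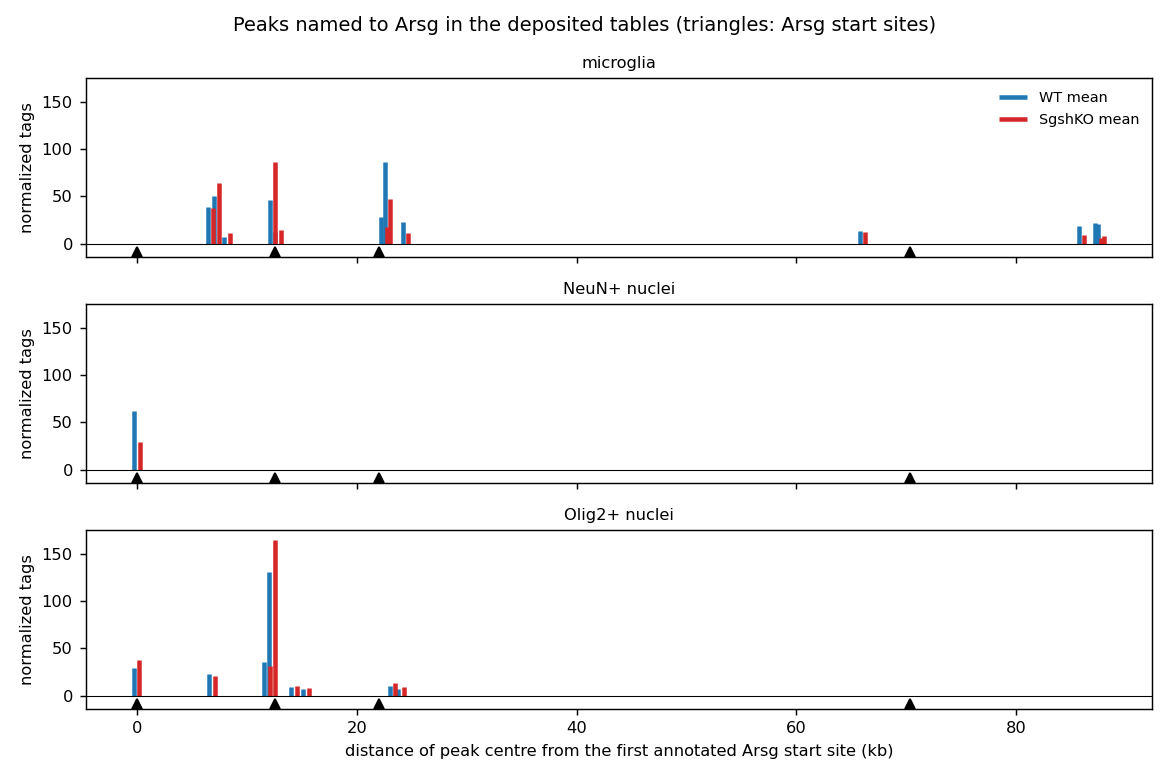
Mean normalized tags of each peak named to Arsg (n = 2 libraries per bar), WT and SgshKO, against the distance in kb of the peak centre from the first Arsg start site; triangles mark Arsg start sites, bars of a pair are drawn side by side, and peaks named to Slc16a6 near 0 kb are not drawn. NeuN+ nuclei have 1 peak, at the first start, while the tallest Arsg peak of Olig2+ nuclei is at the start 12518 bp downstream.

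Hpse, the enzyme that cuts the chain into pieces, had a start-site peak in microglia and in neither sort of nuclei. It held 19.0 and 8.47 tags in WT and 39.0 and 43.6 in SgshKO (chr5:100719631-100719835). It rose by 1.62 ± 0.44 (adjusted p = 0.0166), and was called under all 3 other scalings (1.42 to 1.80). A pair of intergenic peaks upstream of Hpse were higher as well. The one 9228 bp upstream held 22.5 and 15.2 tags in WT and 66.7 and 41.8 in SgshKO (1.46 ± 0.40, adjusted p = 0.0184). The one 6421 bp upstream held 28.5 and 7.62 tags in WT and 50.2 and 38.1 in SgshKO (1.49 ± 0.46, adjusted p = 0.0379). All 3 Hpse calls were lost without WT replicate 2, the lower of the WT libraries at each (adjusted p = 0.722, 0.636 and 0.877), and that of the peak 9228 bp upstream also without WT replicate 1 (0.148). In NeuN+ nuclei an intronic peak 7744 bp into Hpse held 5.10 and 2.82 tags in WT and 11.2 and 7.62 in SgshKO (1.09 ± 0.38, adjusted p = 0.0364), the only peak of the set called higher in that sort.

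Sumf1, needed by every sulfatase, had low start-site peaks in all sorts, between 8.38 and 19.1 tags in the 12 libraries. None was called, with log2 changes of 0.32 ± 0.46, -0.17 ± 0.31 and -0.13 ± 0.31 in microglia, NeuN+ and Olig2+ nuclei. The largest change of the whole set was at a Sumf1 peak in intron 3 of 8 in microglia (chr6:108164984-108165201). It held 2.59 and 1.69 tags in WT and 24.2 and 11.1 in SgshKO, which are 3 and 2 reads against 28 and 12. It rose by 2.49 ± 0.54 (adjusted p = 0.00264), and the ratio of pooled reads was 8.38 (95% interval 3.31 to 27.2, exact, counting error only). Peaks were merged over both genotypes, so this one may have entered only through the SgshKO libraries, where it is high. The p-value and the interval do not allow for that. The call was lost without either of the WT libraries (adjusted p = 0.0719 and 0.266).

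Distal peaks gave 6 calls of 32 in microglia, 3 higher and 3 lower (6.52% of all distal peaks were called, 3.8% higher and 2.72% lower). In NeuN+ nuclei they gave 7 of 31, 1 higher and 6 lower (25.2%, 12.6% in either direction). In Olig2+ nuclei they gave 0 of 13 (19.7%), where 3 had an unadjusted p under 0.05. DESeq2 also called 0 there, but it gave an adjusted p to only 36149 of the 82577 peaks of that sort. Its result is no second check, since low peaks such as these may not have been among them. The members' medians were -0.01, -0.34 and -0.15, against -0.12, -0.11 and -0.13 over all distal peaks. Of the distal peaks, 10, 21 and 5 were labelled to another gene in microglia, NeuN+ and Olig2+ nuclei, 3, 2 and 1 of them to its transcript end, where a peak can lie past the gene. Those nearest Naglu but labelled Atp6v0a1, a subunit gene of the lysosomal proton pump, were 8 of the 10, 13 of the 21 and 1 of the 5.

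Among the lower distal peaks, Gusb had one that was called in both microglia and NeuN+ nuclei. The deposited annotation labels it a transcript end of Gusb, although it lies about 3720 bp into a gene that RefSeq gives as 14039 bp long. In microglia (chr5:129999212-129999447) it held 13.0 and 20.3 tags in WT and 0.87 and 7.43 in SgshKO (fell by 2.12 ± 0.57, adjusted p = 0.0175), and the pooled reads were 4.14 times higher in WT (95% interval 1.97 to 9.72). In NeuN+ nuclei it held 21 and 26.5 tags in WT and 11.2 and 9.52 in SgshKO (fell by 1.12 ± 0.26, adjusted p = 0.00435). SgshKO replicate 1 of microglia held 1 read there, and without that library the change was -1.03 (adjusted p = 0.0939). The microglia call was also lost without WT replicate 1 or 2 (0.245 and 0.713), with the median of ratios (0.0551) and with quantile scaling (0.0797), and that of NeuN+ nuclei without WT replicate 2 (0.0777).

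Of the peaks nearest Naglu, 1 was called in microglia and 4, with the start-site peak, in NeuN+ nuclei, all lower. In microglia the one inside Atp6v0a1 13123 bp upstream of Naglu held 15.6 and 16.1 tags in WT and 5.19 and 2.79 in SgshKO (fell by 1.80 ± 0.51, adjusted p = 0.0248; 0.521 and 0.681 without WT replicate 1 or 2). Those of NeuN+ nuclei 14964 and 6706 bp upstream fell by 1.56 ± 0.43 and 1.03 ± 0.30 (adjusted p = 0.0116 and 0.0162). An intergenic peak 2898 bp upstream fell too (1.06 ± 0.33, adjusted p = 0.0237). The peak 14964 bp upstream held 20 and 15 reads in WT and 7 and 2 in SgshKO. Its pooled reads were 3.31 times higher in WT (95% interval 1.56 to 7.82). The highest distal peaks nearest Naglu were not called. In microglia the Atp6v0a1 end held 198 and 189 tags in WT and 242 and 181 in SgshKO, 6304 bp upstream of Naglu (adjusted p = 0.858), and in NeuN+ nuclei the peak 18768 bp upstream held 34.0 and 30.5 in WT and 20.9 and 27.9 in SgshKO (adjusted p = 0.165). In NeuN+ nuclei a Hgsnat intron peak at 3649 bp also fell, by 0.85 ± 0.31 (adjusted p = 0.0450), and was not called under any of the 3 other scalings (adjusted p from 0.0803 to 0.181). The highest distal peak of Olig2+ nuclei, in intron 1 of Arsg, held 23.9 and 21.5 tags in WT and 25.8 and 15.9 in SgshKO, and the smallest adjusted p was 0.0773 at a peak of Atp6v0a1 12040 bp upstream of Naglu.

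Levels were then compared between the sorts over the 16761 peaks that matched one to one in the 3 tables by a reciprocal overlap of 50%. Of the peaks of these genes, 7 were shared, 5 of them at start sites (Sgsh, Hgsnat, Gusb, Glb1 and Sumf1). Among WT libraries 5 of 7 differed between microglia and NeuN+ nuclei (65.8% of all shared peaks), 4 of 7 between microglia and Olig2+ nuclei (67.2%) and 2 of 7 between NeuN+ and Olig2+ nuclei (49.5%). Median differences over all shared peaks were 0.47, 0.35 and -0.15 on the log2 scale, and all values here are tags per peak, not per length.

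In WT the Gusb start-site peak ranked microglia over Olig2+ over NeuN+ nuclei. It was 4.65 ± 0.22 (log2) higher in microglia than in NeuN+ nuclei (adjusted p = 5.24e-14) and 2.81 ± 0.22 higher than in Olig2+ nuclei (1.7e-10), and NeuN+ nuclei were below Olig2+ nuclei (-1.85 ± 0.22, 3.45e-07). Sgsh had the same order, with differences of 2.58 ± 0.21 (3.63e-10), 1.29 ± 0.21 (1.18e-05) and -1.29 ± 0.21 (2.5e-05). Naglu start-site peaks matched only when 1 bp of overlap was enough, and they too were in this order, with 2.47 ± 0.15 (4.86e-12), 1.88 ± 0.15 (3.48e-10) and -0.59 ± 0.15 (0.00272). Glb1 was higher in microglia than in NeuN+ (1.09 ± 0.20, 5.5e-05) and Olig2+ nuclei (1.26 ± 0.20, 8.08e-06), which did not differ beyond their spread (0.17 ± 0.20, 0.507). Hgsnat was the exception: it was lower in microglia than in NeuN+ nuclei (-0.40 ± 0.15, 0.0201), and the other pairs were not called. Sumf1 was called in no pair, the largest difference being 0.44 ± 0.35. The differences named for Sgsh, Gusb and Glb1 kept their direction and call with the in-peak sum and quantile scaling, as did the lower Hgsnat level. With both of these scalings Hgsnat was also called lower in microglia than in Olig2+ nuclei (0.0121 and 0.0302) and higher in NeuN+ than in Olig2+ nuclei (0.0186 and 0.00618). The peak 12035 bp upstream of Naglu was higher in microglia than in NeuN+ (1.23 ± 0.33, 0.00249) and Olig2+ nuclei (1.18 ± 0.33, 0.00331), and was not called with quantile scaling (0.108 and 0.145).

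The genotype change itself was then compared between sorts in the same fit of 12 libraries. It differed at 4 of the 7 shared peaks (F test, 47.6% of all shared peaks): Hgsnat (adjusted p = 1.57e-08), Sgsh (8.56e-05), Glb1 (0.0174) and the peak 12035 bp upstream of Naglu (0.0498). For Hgsnat the change in microglia exceeded that in NeuN+ nuclei by 2.44 ± 0.21 (adjusted p = 3.48e-09) and that in Olig2+ nuclei by 1.43 ± 0.21 (2.27e-05), and NeuN+ nuclei lay below Olig2+ nuclei (-1.01 ± 0.21, 0.00115). For Sgsh the first difference was 1.85 ± 0.30 (2.29e-05) and the last -1.16 ± 0.30 (0.00552), while microglia and Olig2+ nuclei were not told apart (0.69 ± 0.30, 0.111). The medians of these 3 differences over all shared peaks were 0.60, 0.17 and -0.50. Gusb (0.0782), Sumf1 (0.636) and the distal Idua peak (0.323) were not called. The fit gave a peak the same SE in every sort. For the change of Hgsnat it was 0.147, against 0.27, 0.122 and 0.101 in the separate fits of microglia, NeuN+ and Olig2+ nuclei. The error of microglia is thus understated at this peak. It is also understated at Sgsh (0.212 against 0.27), Glb1 (0.201 against 0.292) and Gusb (0.222 against 0.258). The same holds at the peak 12035 bp upstream of Naglu (0.332 against 0.437). In this fit, which pools the spread over the 12 libraries, the microglia changes of Sgsh (0.0364), Gusb (0.0297) and Glb1 (0.00438) passed the threshold that they missed in the table of microglia alone, but not with the in-peak sum (0.15, 0.20 and 0.34; adjusted p = 0.551, 0.409 and 0.143) or quantile scaling (0.03, -0.08 and 0.45; adjusted p = 0.925, 0.801 and 0.0846). Without NeuN+ WT replicate 1, or without NeuN+ SgshKO replicate 2, the change differed between sorts at 2 of the 7 peaks.

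Scaling to the in-peak sum kept the calls of Hgsnat (7.21e-05), Sgsh (0.0423) and the Naglu upstream peak (0.00291), and so did quantile scaling (5.08e-05, 0.0383 and 0.0341). Glb1 was not called with either (0.998 and 0.921). The Naglu upstream peak, inside Atp6v0a1, was lower in SgshKO in microglia (-1.22 ± 0.33) and higher in mean in NeuN+ nuclei (0.15 ± 0.33). With 1 bp of overlap the Naglu start-site peak entered, and its change differed between sorts too (5.26e-05), by 1.41 ± 0.22 between microglia and NeuN+ nuclei.

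**Figure D4:**
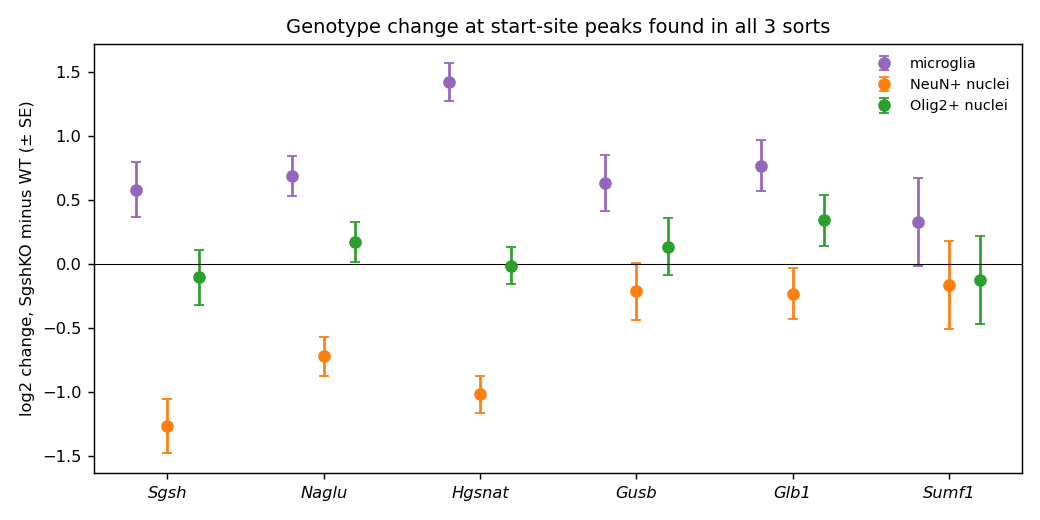
Log2 change, SgshKO minus WT, of the start-site peaks matched in all 3 sorts with an overlap of at least 1 bp, with standard errors from 1 fit of the 12 libraries. Microglia are above 0 and NeuN+ nuclei below 0 for all 6 genes, with the widest gap at Hgsnat (1.42 against -1.02), and Olig2+ nuclei lie between -0.13 and 0.34. Scaled to the in-peak sum, Glb1, Gusb and Sumf1 are above 0 in NeuN+ nuclei and Sumf1 is below 0 in microglia (-0.08), and with quantile scaling Gusb is below 0 there (-0.08).

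Other genes of glycosaminoglycan breakdown were counted from a list of 19, of which 18 had peaks (344 in all; Hpse2 had none). In microglia 4 of 32 start-site peaks were called (12.5%, against 9.8% of all), all higher. They were the pair at Gm2a, which encodes the GM2 activator protein (143 and 146 tags in WT and 468 and 676 in SgshKO at the one, 63.1 and 65.2 and 251 and 342 at the other), and those of the keratan sulfate sulfatase Galns (1.64 ± 0.27, adjusted p = 9.57e-05) and the sialidase Neu1 (1.06 ± 0.26, 0.00755). Of its 110 distal peaks, which lay near 12 genes, 16 were called (14.5%, against 6.52% of all), 3 higher and 13 lower (2.72% of all were lower).

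In NeuN+ nuclei 12 of 27 start-site peaks of the list were called (44.4%, against 46.6% of all), 11 lower and 1 higher. Of the 11, Fuca1 and Gm2a were above 0 with quantile scaling (0.12 and 0.19). Galns fell from 436 and 375 tags to 176 and 211 (by 1.07 ± 0.09, adjusted p = 9e-07), and Neu1 from 158 and 149 to 83.8 and 90.8 (by 0.81 ± 0.11, 7.45e-05). In Olig2+ nuclei 5 of 29 were called (17.2%, against 20.3% of all). Among them, Gm2a (0.32 ± 0.06) rose, and Galns (by 0.20 ± 0.07), Hyal1 (by 0.53 ± 0.16) and Sulf2 (by 0.57 ± 0.20) fell. Distal peaks of the list gave 5 calls of 57 in NeuN+ nuclei (8.77%, against 25.2%), 2 higher and 3 lower, and 14 of 89 in Olig2+ nuclei (15.7%, against 19.7%), 2 higher and 12 lower. The Galns start-site peak carries in each sort the promoter label of Trappc2l, so its signal cannot be assigned to one of these genes. The Galns and Neu1 peaks, like that of Hgsnat, were thus called higher in microglia and lower in NeuN+ nuclei, and for this pair the difference between the sorts was not tested.

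The genes whose shared start-site peak was most like that of Sgsh over the 12 libraries, by Pearson correlation of log2 values among 8429 genes, were Jtb (0.992), Gnai2 (0.991), Slc9a8 (0.990), Trafd1 (0.989) and Sertad3 (0.989). Of the other 8 genes of the set, Gusb ranked 394 (0.958), Glb1 2362 (0.835), Sumf1 2573 (0.820) and Hgsnat 3714 (0.710). The libraries share their sort and their depth, and these values only describe the order of levels.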

How the data were processed

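ATAC-seq tags were analysed for 12 libraries in 3 tables, 1 per sort, in which per the file headers the authors deposited merged peaks with the nearest gene and a signal: tags per peak with each library scaled to 10000000 tags. Alignment with Bowtie2, peak work with HOMER and build mm10 are given per the submitters' processing notes, while the sources used here do not state read shifting or duplicate handling. The deposited Peak Score, a score from 540 to 1000, was not used. Dividing out the scaling recovered whole reads for 100% of values (tolerance 0.02 reads).

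Within each table log2(tags + 1) was compared with limma 3.58.1 (R 4.3.3, trend, two-sided, no covariate) over all peaks. Calls needed an adjusted p (Benjamini-Hochberg) under 0.05. The scale understates changes of low peaks. Peaks matched one to one with bedtools 2.31.1 entered 1 fit of the 12 libraries. Named were each gene's start-site peak of highest mean, up to 4 distal peaks per table by p (at most 2 per gene), the highest distal peak, the 2 pathway start-site peaks of smallest p and the 5 genes most like Sgsh. Peaks named beyond this rule (other calls, other start-site peaks, pathway genes) were chosen after their values were seen, as was the TGACGTCA motif. The genes and lists were chosen with earlier results of these data known.

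The following were varied: the pseudocount (0.5, 5), a filter on the lowest 25% of peaks, the scaling (3 others), the test (DESeq2 1.42.0 or edgeR 4.0.16, run on the reads), a replicate block, a 500 bp window, 1 bp of overlap, values per 100 bp of width, and leaving out each library. On simulated data limma recovered 100% of 4-fold changes in each table and 40%, 63% and 86% of 2-fold changes in microglia, NeuN+ and Olig2+ nuclei. Recovery at peaks of low level was not tested, and these shares are not given for such peaks. Intervals cover counting error only. A peak that is low in 1 genotype may be in the merged set only through the other, and p-values and intervals do not allow for this. One gene of the wider list is counted in its totals and is not reported here.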

Additional observations from a re-analysis of the deposited data

Results flagged for a closer look

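The genotype change differed between the sorts, by an F test over 12 libraries adjusted over all shared peaks, at 4 peaks. The adjusted p was 1.57e-08 for the Hgsnat start-site peak, where the change was 1.42, -1.02 and -0.01 for microglia, NeuN+ and Olig2+ nuclei. It was 8.56e-05 for the Sgsh start-site peak (0.58, -1.27 and -0.11), 0.0174 for that of Glb1 (0.77, -0.23 and 0.34) and 0.0498 for the peak 12035 bp upstream of Naglu (-1.22, 0.15 and -0.79). A difference of this kind passed the same test at 47.6% of the 16761 shared peaks.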

How the results depend on the processing

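The 8 calls in microglia became 4 without the lowest 25% of peaks, 14 with the in-peak sum, 15 with the median of ratios, 18 with edgeR, 5 with DESeq2 and 17 with the replicate block, and ranged from 0 to 17 when 1 library was left out. The 11 calls in NeuN+ nuclei became 5 with quantile scaling, 1 with DESeq2 and 12 with the replicate block (0 to 3 without 1 library), and the 1 call in Olig2+ nuclei became 0 with DESeq2 and 1 with the block (0 to 1). Replicate numbers are not stated to pair libraries, and the correlation of same-numbered deviations was 0.042, 0.004 and 0.001 in the 3 tables. The peaks that differed between WT sorts, 5, 4 and 2, became 4 between NeuN+ and Olig2+ nuclei with the in-peak sum, and were 4 to 5, 3 to 5 and 2 to 2 without 1 library. The 4 peaks whose change differed between sorts became 2 to 5 without 1 library and 5 with the replicate block. With 1 library left in a group, it is assumed to vary like the others. The cause of these shifts was not tested.

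Within each sort, the direction turned at peaks that were not called, except at Fuca1 and Gm2a in NeuN+ nuclei. In the limma fit of all libraries, the microglia change of Gusb was called (0.63, adjusted p = 0.0297) and went the other way with quantile scaling. With the in-peak sum the change was -0.094 at the Naglu peak at -6304 bp in microglia, 0.058 at Glb1, 0.059 at Gusb and 0.104 at Sumf1 in NeuN+ nuclei, and 0.006 at Hgsnat in Olig2+ nuclei. With the median of ratios, edgeR and DESeq2 it was 0.029, 0.020 and 0.022 at Sumf1 in NeuN+ nuclei and 0.054, 0.053 and 0.054 at Hgsnat in Olig2+ nuclei. With quantile scaling it was -0.235 at the Naglu peak, 0.057 at Glb1, 0.115 at Fuca1 and 0.190 at Gm2a in NeuN+ nuclei, and 0.093 at Idua in Olig2+ nuclei. Leaving out 1 library gave -0.095 to 0.320 at the Naglu peak, -0.526 to 0.094 at Gusb and -0.356 to 0.024 at Sumf1 in NeuN+ nuclei. In Olig2+ nuclei it gave -0.480 to 0.182 at the Arsg peak at -5746 bp, -0.056 to 0.028 at Hgsnat, -0.446 to 0.224 at Idua and -0.450 to 0.199 at Sumf1. Peaks under 10 tags rest on few reads, which limits what these depths can show.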

Other observations

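Some peaks at the start of these genes carry a neighbour's name in the deposited annotation, and were looked at after their values were seen. Idua begins inside Dgkq, which runs the other way. A peak over the start of Dgkq, within 1000 bp of that of Idua, held 166 and 168 tags in WT microglia and 441 and 361 in SgshKO (1.25 ± 0.26, adjusted p = 0.00207). In NeuN+ nuclei it held 107 and 92.6 tags in WT and 51.0 and 60.3 in SgshKO (fell by 0.83 ± 0.14, adjusted p = 0.000461), and in Olig2+ nuclei 87.1 and 79.8 in WT and 85.5 and 108 in SgshKO (adjusted p = 0.313). Near the first Arsg start, the microglia peak named to Slc16a6 that overlaps the Arsg peak of the nuclei held 113 and 103 tags in WT and 105 and 152 in SgshKO (0.22 ± 0.30, adjusted p = 0.717). Peaks named to Tmppe just inside Glb1 held 76.9 and 55.1 tags in WT microglia and 58.0 and 47.4 in SgshKO, and 28.9 and 31.1 against 19.5 and 22.9 in NeuN+ nuclei (adjusted p = 0.648 and 0.0958).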
